A study of Mus musculus with 22 samples.

Results

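AY036118, Gm42418 and Gm26917 are mouse genes annotated as long intergenic noncoding RNAs that lie beside each other at a ribosomal RNA gene on chromosome 17. These 3 members were taken by their symbols from the 55335 genes of the expression table. They were chosen by AY036118 being higher in H2A.Z KD blastocysts than in control blastocysts, so the blastocyst values below are a description with no test. In the nucleolus, RNA polymerase I transcribes ribosomal DNA repeats into a long precursor. Spacers are then cut away from it, and the RNAs of the small and large ribosomal subunits remain. Ribosomal RNA carries no long poly(A) tail, so libraries primed on poly(A) hold little of it. Early mouse embryos start with ribosomes stored in the oocyte and take up ribosomal RNA synthesis again during cleavage.

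RNA-seq was performed on 22 libraries of mouse embryos, each made from a pool of 15 embryos. 2-cell embryos were collected 43 to 44 h after hCG injection, morulae at 78 h and blastocysts at 94 h. Each stage had 4 control libraries. H2A.Z KD gave 3 libraries at the 2-cell stage, 3 at the morula stage and 4 at the blastocyst stage. For the KD, siRNA at 20 µM, some 10 pL per zygote, was injected against H2A.Z, a histone H2A variant placed at promoters, and what the control embryos of these libraries received is not stated in the sources used here. Libraries were made with Smart-seq2, which copies full-length cDNA from poly(A) RNA without keeping its strand, with 16 to 18 cycles of preamplification and reads of 150 bp. Levels are FPKM, which divide the fragments of a gene by its length and by the total of the library. The read depth behind each value is unknown. Between 24481 and 29177 genes were above 0 in a library. No pair of libraries held identical values. The labels do not say that the pools of a group came from separate collections, so p-values measure the spread between these pools.

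The targeted gene was lower in every KD library than in the controls of its stage. H2afz, which encodes H2A.Z.1, stood at 1244, 1236, 905 and 1178 FPKM in control 2-cell embryos and at 415, 139 and 112 FPKM in KD 2-cell embryos. In morulae it was at 1158, 1336, 1511 and 1421 FPKM in controls and at 30.3, 25.7 and 29.0 FPKM after KD. Control blastocysts had 2656, 2431, 1945 and 2055 FPKM, and KD blastocysts had 64.2, 67.2, 53.2 and 57.6 FPKM. KD 2-cell replicate 1 kept the most of it. H2afz fell by 5.41 on the log2(FPKM + 1) scale in morulae (limma, adjusted p = 9.71e-08). In 2-cell embryos the log2 fold change was -2.53, and it did not pass the adjusted test (limma, adjusted p = 0.543). Without KD replicate 1 of that stage it was -3.12 (limma, adjusted p = 0.000907), and over all alternatives the adjusted p lay between 0.000907 and 0.861. H2afv, which encodes H2A.Z.2, was at 110 ± 8.96 FPKM (SD, n = 4) in control and 88.9 ± 7.56 FPKM (SD, n = 3) in KD 2-cell embryos, a log2 fold change of -0.23 (limma, adjusted p = 0.840). It fell by 2.93 in morulae (limma, adjusted p = 2.93e-06). In blastocysts H2afv was at 57.5 ± 6.40 FPKM in controls and 15.3 ± 3.99 FPKM after KD (SD, n = 4 each), a difference of -1.86 on the log2 scale.

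All positions are on GRCm38. Gm26917 (ENSMUSG00000097971.3) lies on the + strand at chr17:39843013-39846341, with a single-exon transcript of 3329 bases and a shorter transcript of 869 bases. Gm42418 (ENSMUSG00000098178.1) lies on the + strand at chr17:39846958-39848788 as 1 exon of 1831 bases. AY036118 (ENSMUSG00000105361.1) lies on the - strand at chr17:39847113-39848035 as 1 exon of 923 bases. A neighbour annotated as a ribosomal RNA gene, CT010467.1 (ENSMUSG00000106106.2), lies on the - strand at chr17:39846353-39848827. AY036118 lay inside Gm42418 over 100% of its length, on the opposite strand, and inside CT010467.1 over 100% of its length, on the same strand. Gm42418 lay inside CT010467.1 over 100% of its length. Gm26917 overlapped none of them and ended 11 bases before CT010467.1. In a search of all reference transcripts for stretches of 31 bases shared with a member, CT010467.1 was the 1 gene found outside the members, and Gm26917 shared no such stretch with another gene. Since strand was not kept, reads from AY036118, Gm42418 and CT010467.1 cannot be told apart over the shared bases, and their FPKM depend on how the quantification divided those reads. The members differed in base composition, with a GC content of 54.4% in AY036118, 60.2% in Gm42418 and 69.1% in the longer Gm26917 transcript.

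**Figure D1:**
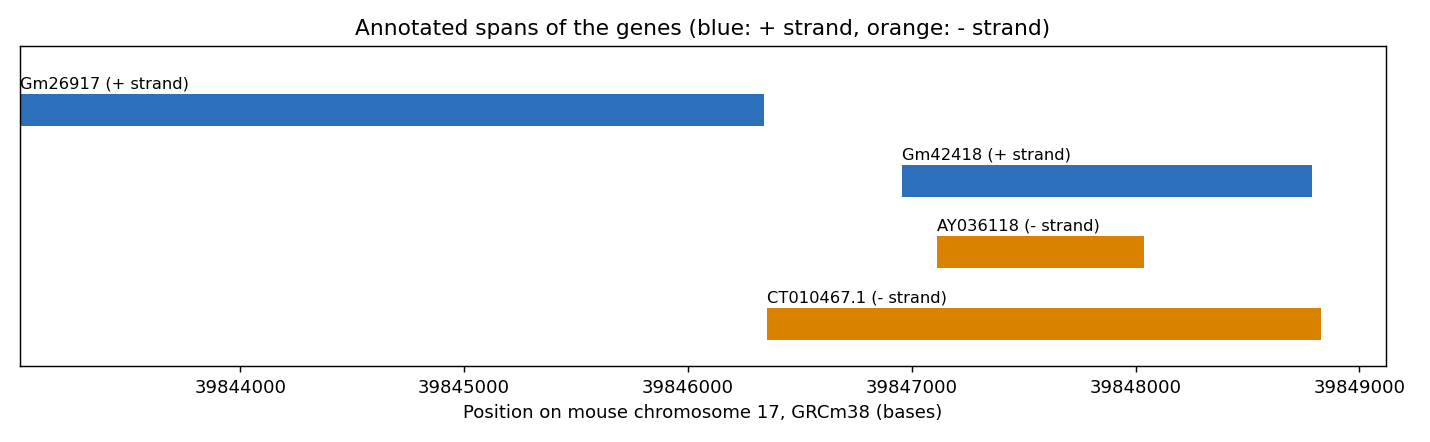
Annotated spans of Gm26917, Gm42418, AY036118 and CT010467.1 on chromosome 17, drawn to scale against the position in bases on GRCm38, with blue bars on the + strand and orange bars on the - strand. AY036118, 923 bases long, lies within Gm42418 and CT010467.1, and Gm26917 lies apart from them.

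The name of the group was set beside sequence. The longest stretch that Gm42418 shared with mt-Rnr1, the small-subunit ribosomal RNA of mitochondria, had 15 bases. Searched on both strands of 141767 reference transcripts, these letters were found in 3 genes, Gm42418, CT010467.1 and mt-Rnr1. The letters were picked as the longest shared stretch, so how rare they are follows in part from that choice. Of 1722 lincRNA transcripts at least as long as Gm42418, cut to its length, 10 (0.581%), Gm42418 included, shared any stretch of 15 bases with mt-Rnr1 on the same strand, and 30 (1.74%) did so on either strand. Gm26917 shared no stretch of 31 bases with a ribosomal RNA gene, so its name as a relative rests on its place beside CT010467.1. The stretches below are shown for the bases that Gm42418 shares with a small-subunit ribosomal RNA, which are in capitals.
Gm42418, chr17:39848134-39848193, + strand: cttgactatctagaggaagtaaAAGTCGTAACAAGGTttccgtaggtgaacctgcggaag
mt-Rnr1, chrM:958-1017, + strand: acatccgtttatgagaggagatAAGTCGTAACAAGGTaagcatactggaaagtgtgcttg

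Since the libraries were primed on poly(A), runs of at least 6 A or 6 T were counted in the annotated strand of the longest transcript of each member. AY036118 held 0 runs of A and 1 run of T. Gm42418 held 1 run of A and 0 runs of T. Gm26917 held 0 runs of A and 1 run of T, of 7 bases. Of lincRNA transcripts at least as long, cut to the same length, 33.1%, 51.2% and 77.0% held a run of A for AY036118, Gm42418 and Gm26917, in that order. A run of T was held by 28.9%, 58.0% and 79.0% of them. The run of A in Gm42418 and the run of T in AY036118 were the same bases read on opposite strands, as the stretches below show, with the runs in capitals.
Gm42418, chr17:39847140-39847199, + strand: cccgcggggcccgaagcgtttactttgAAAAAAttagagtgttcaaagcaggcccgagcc
AY036118, chr17:39847140-39847199, - strand: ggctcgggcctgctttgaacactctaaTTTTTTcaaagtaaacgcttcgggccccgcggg
Gm26917, chr17:39844878-39844937, + strand: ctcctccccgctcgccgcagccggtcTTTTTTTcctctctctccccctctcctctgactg

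AY036118 was abundant at all 3 stages. In control 2-cell embryos it stood at 927, 964, 2728 and 1242 FPKM, and in KD 2-cell embryos at 627, 855 and 788 FPKM. Replicate 4 was the high control library, and the KD libraries lay below all controls. In control morulae AY036118 stood at 2241, 724, 1013 and 284 FPKM, and in KD morulae at 1261, 1167 and 1627 FPKM. The KD morulae lay within the wide range of the controls. In control blastocysts AY036118 stood at 226, 965, 921 and 927 FPKM, and in KD blastocysts at 1652, 1608, 5164 and 2938 FPKM. Every KD blastocyst library lay above the controls, in the contrast that chose the members, and control replicate 1 was far below the other controls. The same library was also the lowest of its group for Gm42418, Gm26917 and CT010467.1.

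The order of the group means of AY036118 was KD blastocysts (2841 ± 1667 FPKM, SD, n = 4), control 2-cell embryos (1465 ± 854 FPKM, SD, n = 4), KD morulae (1352 ± 243 FPKM, SD, n = 3), control morulae (1066 ± 839 FPKM, SD, n = 4), control blastocysts (760 ± 356 FPKM, SD, n = 4) and KD 2-cell embryos (756 ± 117 FPKM, SD, n = 3). Each pair of neighbours in this order overlapped in range. AY036118 took from 0.0313% of all FPKM, in control blastocyst replicate 1, to 0.876%, in KD blastocyst replicate 5. In the latter library it ranked 8 among all genes.

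Gm42418 stood below AY036118 in every library. It was at 113, 226, 2.54 and 109 FPKM in control 2-cell embryos and at 198, 154 and 14.9 FPKM in KD 2-cell embryos. The low libraries were replicate 4 of each group. Control morulae had 142, 77.3, 54.3 and 26.1 FPKM, and KD morulae had 235, 112 and 107 FPKM. KD replicate 1 lay above all control morulae. Control blastocysts had 60.1, 191, 90.6 and 335 FPKM, and KD blastocysts had 121, 113, 382 and 253 FPKM. Control and KD libraries of Gm42418 overlapped at each stage. Its group means ran from 217 ± 127 FPKM (SD, n = 4) in KD blastocysts through 169 ± 124 (SD, n = 4) in control blastocysts, 152 ± 72.6 (SD, n = 3) in KD morulae, 123 ± 95.7 (SD, n = 3) in KD 2-cell embryos and 113 ± 91.4 (SD, n = 4) in control 2-cell embryos to 74.8 ± 49.2 (SD, n = 4) in control morulae, and each pair of neighbours overlapped.

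The bases of Gm26917 lie before those of the other members on the + strand. Gm26917 was the least abundant member except in control 2-cell replicate 4, where Gm42418 was lower. Gm26917 stood at 0.693, 0.806, 2.75 and 1.75 FPKM in control 2-cell embryos and at 0.681, 2.21 and 1.28 FPKM in KD 2-cell embryos. Control morulae had 28.1, 8.01, 11.6 and 13.7 FPKM, and KD morulae had 20.5, 21.2 and 20.5 FPKM. Control replicate 1 was the highest of the morulae. Control blastocysts had 4.03, 8.36, 11.3 and 10.3 FPKM, and KD blastocysts had 11.9, 19.1, 32.8 and 22.1 FPKM. KD and control blastocysts did not overlap, and the smallest gap, between KD replicate 1 and control replicate 5, was narrow. This contrast chose the members, and the share of all genes without overlap there was not counted. The group means were 21.5 ± 8.69 FPKM (SD, n = 4) in KD blastocysts, 20.7 ± 0.383 (SD, n = 3) in KD morulae, 15.4 ± 8.83 (SD, n = 4) in morulae of the control group, 8.50 ± 3.22 (SD, n = 4) in control blastocysts, 1.50 ± 0.957 (SD, n = 4) in control 2-cell embryos and 1.39 ± 0.773 (SD, n = 3) in KD 2-cell embryos. In this order the 1 pair of neighbours that did not overlap was control blastocysts and control 2-cell embryos.

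**Figure D2:**
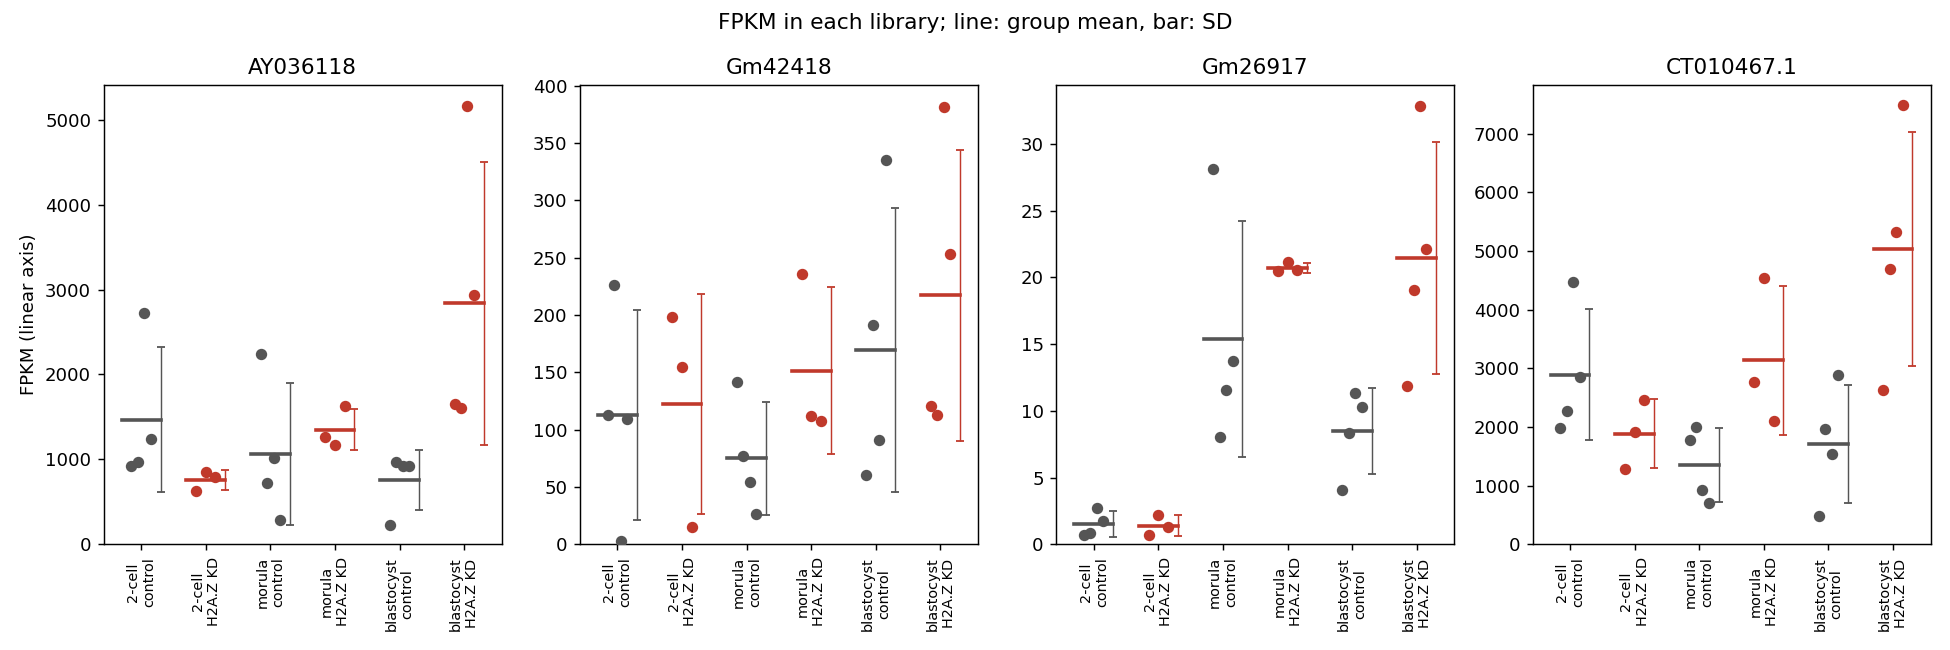
FPKM of AY036118, Gm42418, Gm26917 and CT010467.1 (linear axes from 0) in each library of the 6 groups, with grey points for control and red points for H2A.Z KD, a line at the group mean and a bar for the SD. AY036118 was at 1608 to 5164 FPKM in KD blastocysts and at 226 to 965 FPKM in control blastocysts, and Gm26917 was lowest in 2-cell embryos.

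The neighbour CT010467.1 had a higher FPKM than AY036118 and Gm42418 in every library except control morula replicates 1 and 7, where AY036118 was higher. It stood at 1975, 2265, 4472 and 2844 FPKM in control 2-cell embryos and at 1285, 1915 and 2465 FPKM in KD 2-cell embryos. Control morulae had 1777, 1999, 919 and 701 FPKM, and KD morulae had 2766, 4547 and 2095 FPKM. Control blastocysts had 474, 1960, 1534 and 2893 FPKM, and KD blastocysts had 2629, 4696, 5327 and 7481 FPKM. Of the summed FPKM of AY036118, Gm42418 and CT010467.1, AY036118 took between 20.0% and 53.9% in a library, and Gm42418 between 0.0352% and 9.40%. The ratio of AY036118 to Gm42418 ran from 2.76, in control blastocyst replicate 6, to 1076, in control 2-cell replicate 4. The latter library had the lowest Gm42418 value and the highest AY036118 value of its group. In KD blastocysts the ratio stayed between 11.6 and 14.2, and in control blastocysts between 2.76 and 10.2. The sum of the 3 overlapping genes was 2644 ± 1422 FPKM (SD, n = 4) in control blastocysts and 8091 ± 3204 FPKM (SD, n = 4) in KD blastocysts, a description within the contrast that chose the members.

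The first test asked whether the members differed between KD and control 2-cell embryos. A DEG had to change by more than 1 on the log2 scale with an adjusted p below 0.05, among genes with at least 1 FPKM in at least 3 libraries of the comparison. All 3 members passed this filter in each comparison. In 2-cell embryos 0 of 3 members were DEGs, against a background of 0% of 12160 genes higher and 0% lower. At an unadjusted p under 0.05, limma gave 701 genes. The mean of AY036118 after KD was 0.516 times that of controls. Its log2 fold change was -0.75, with a standard error of 0.31 (limma, adjusted p = 0.828), and without control replicate 4 it was -0.43. The log2 fold changes were 0.54 for Gm42418, with a standard error of 1.30, and 0.00 for Gm26917, with a standard error of 0.30 (limma, adjusted p = 0.955 and 1.000). The value of Gm42418 turned to -0.81 without control replicate 4 and to -0.13 without KD replicate 1. The share of AY036118 in all FPKM gave p = 0.143 in an exact two-sided permutation test, and 0.490 after adjustment over 20 such tests. The smallest p this design allows is 0.0286. Before lysis, the zona pellucida, the coat of the embryo, was removed with pronase E and the embryos were washed. Of 7 markers of cumulus and granulosa cells, which could cling to an embryo, the summed FPKM was 11.6, 6.62, 18.4 and 18.0 in control 2-cell embryos and 8.07, 11.6 and 9.04 in KD 2-cell embryos. Control replicate 4 was the highest in this sum, as it was in AY036118, and the groups overlapped. Amhr2 was the most abundant of these markers, and Ptx3 and Inhba were at 0. Markers of 2-cell embryos (Zscan4c, Zscan4d, Zfp352, Usp17la and Usp17lc) summed to 213, 225, 188 and 160 FPKM in controls and to 202, 170 and 195 FPKM after KD. The part of these markers in the values of AY036118 was not tested.

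The second test made the same comparison in morulae. Here too 0 of 3 members were DEGs, against a background of 0.992% of 10989 genes higher and 2.53% lower. With FPKM as deposited, the share of DEGs that were higher was 14.3% in place of 28.2%, and the median of all genes shifted by -0.10 on the log2 scale. The 3 KD libraries of AY036118, of Gm42418 and of Gm26917 lay above the median of the controls. The share of all genes that did so was not counted, and AY036118 and Gm42418 share bases, so nothing is read from this. The log2 fold change of AY036118 was 0.82, with a standard error of 0.49 (limma, adjusted p = 0.281). It was 0.34 without control replicate 8 and 1.23 without control replicate 1. Over all alternatives it ran from 0.096, with replicate numbers as a block, to 1.23. That of Gm42418 was 1.28, with a standard error of 0.43 (limma, adjusted p = 0.0759). It passed the threshold without control replicate 1, at 1.60 (limma, adjusted p = 0.0252), and with low against high replicate numbers as a batch term, at 1.12 (limma, adjusted p = 0.0393). Over all alternatives its adjusted p in limma lay between 0.00516 and 0.295. The 0.00516 came with replicate numbers as a block, where the log2 fold change was 0.79 and short of the fold threshold. Only numbers 1 and 2 occur in both groups, so the block fit rests on few libraries and its p-value is not to be relied on. The log2 fold change of Gm26917 was 0.67, with a standard error of 0.29 (limma, adjusted p = 0.149), and it was 0.43 without control replicate 2. Without control replicate 1 it was 0.93, short of the fold threshold (limma, adjusted p = 0.0184), and over all alternatives its adjusted p lay between 0.0184 and 0.387. The overlapping CT010467.1, outside the members, was higher after KD in 3 of 3 libraries than in any control, with a log2 fold change of 1.40 and a standard error of 0.35 (limma, adjusted p = 0.0262). This call was lost without control replicate 7 (limma, adjusted p = 0.0639), control replicate 8 (0.0542), KD replicate 1 (0.0669) or KD replicate 2 (0.114), and with no filter on low FPKM (0.166). With low against high replicate numbers as a batch term, AY036118 was 0.74, Gm26917 was 0.66 and CT010467.1 was 1.25 (limma, adjusted p = 0.307, 0.146 and 0.00495). In these pools, more cells of a type and more RNA per cell cannot be told apart.

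Markers of cell types were read in the same morulae. The 3 markers of the inner cell mass (Nanog, Pou5f1 and Sox2) summed to 119, 130, 137 and 165 FPKM in control morulae and to 39.3, 31.4 and 49.0 FPKM in KD morulae, without overlap. Nanog, the most abundant of them, was at 106 ± 33.2 FPKM (SD, n = 4) in controls and 20.7 ± 10.8 FPKM (SD, n = 3) after KD. Sox2 was near 0 in both groups. The 4 trophectoderm markers (Cdx2, Gata3, Krt8 and Krt18) summed to 104, 91.3, 114 and 130 FPKM in controls and to 80.4, 68.4 and 103 FPKM after KD, with Krt18 the most abundant, and the groups overlapped. Gata3 taken alone did not overlap, at 19.2 ± 3.12 FPKM (SD, n = 4) in controls and 11.5 ± 2.42 FPKM (SD, n = 3) after KD. The 5 markers of 2-cell embryos summed to 0.350, 0.339, 3.58 and 3.59 FPKM in controls and to 3.93, 1.93 and 2.95 FPKM after KD, and these sums overlapped. The 7 markers of cumulus and granulosa cells summed to 5.66, 4.04, 5.79 and 4.80 FPKM in controls and to 3.87, 4.77 and 6.04 FPKM after KD, almost all of it Amhr2. The part of these markers in the values of CT010467.1 and the members was not tested.

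The third test asked whether the KD effect itself differed between morulae and 2-cell embryos. None of the 3 members passed this limma test, against a background of 0.383% of 14605 genes with a higher and 0.863% with a lower KD effect in morulae. The difference for AY036118 was 1.56, with a standard error of 0.63 and a 95% interval from 0.21 to 2.90 (limma, adjusted p = 0.259). The difference was 0.73 for Gm42418, with an interval from -2.65 to 4.12 (limma, adjusted p = 0.888), and without KD 2-cell replicate 4 it turned to -0.41. It was 0.67 for Gm26917, with an interval from -0.26 to 1.59 (limma, adjusted p = 0.522). For CT010467.1 it was 1.91 (limma, adjusted p = 0.0559), which passed the threshold without control morula replicate 1, at 2.03 (adjusted p = 0.0474), or replicate 2, at 2.16 (0.0372), and over all alternatives its adjusted p lay between 0.0372 and 0.162.

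The fourth test followed normal development from control 2-cell embryos to control morulae. Gm26917 was the 1 member of 3 that was a DEG, higher in morulae, against a background of 32.1% of 13655 genes higher and 30.1% lower. All 4 control morulae were above all 4 control 2-cell embryos. The log2 fold change of Gm26917 was 2.64, with a standard error of 0.31 (limma, adjusted p = 6.28e-06), and it stayed between 2.39 and 3.31 under all 12 alternatives. Only 2 of the 4 control 2-cell libraries held it at 1 FPKM or more, so it passed the filter on low FPKM through the morulae, where it was high. With no filter, its log2 fold change was 2.64 (limma, adjusted p = 0.000433). AY036118 had a log2 fold change of -0.68, with a standard error of 0.48 (limma, adjusted p = 0.200). Without control morula replicate 1, it fell by 1.06 (limma, adjusted p = 0.0376), and over all alternatives its adjusted p lay between 0.0376 and 0.697. It was -0.39 without control 2-cell replicate 4 and -0.16 without control morula replicate 8. Over all alternatives the value of AY036118 ran from -1.06 to 0.25, with its direction reversed in 1 of 12, the block on replicate numbers. Only numbers 1 and 2 occur in both groups, so this block fit rests on few libraries. Gm42418 had 0.16, with a standard error of 1.05 (limma, adjusted p = 0.889). Without control 2-cell replicate 4, it fell by 1.22 (limma, adjusted p = 0.0258), and without control morula replicate 1 it was -0.13. Its adjusted p lay between 0.0258 and 0.929 over all alternatives. CT010467.1 fell by 1.16 (limma, adjusted p = 0.00344), and without control 2-cell replicate 4 or control morula replicate 8 its change was -0.99 or -0.89, short of the fold threshold. Over all alternatives the change of CT010467.1 ran from -1.34 to -0.35, with an adjusted p between 0.00120 and 0.339 (limma). The -0.35 and the 0.339 came with the same block on replicate numbers. The sum of the overlapping genes was 3414 ± 1050 times Gm26917 in control 2-cell embryos and 186 ± 117 times in control morulae (SD, n = 4 each).

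In blastocysts, the contrast by which the members were selected, the background of DEGs was 6.06% of 11828 genes higher and 7.69% lower, and nothing is read from it for the members. The mean of KD over control libraries was 3.74 for AY036118, 1.28 for Gm42418 and 2.53 for Gm26917. On the log2 scale the differences were 1.94, 0.48 and 1.24. Leaving out single libraries, the difference of AY036118 ran from 1.48, without control replicate 1, to 2.14, and that of Gm26917 from 1.01 to 1.46, while that of Gm42418 ran from 0.14 to 0.89. These ranges come from the libraries that chose the members, so they lend the differences no support. Markers of cell types were read in these libraries too. The summed FPKM of the 4 trophectoderm markers was 986, 1460, 1295 and 973 in control blastocysts and 568, 727, 756 and 586 in KD blastocysts, with Krt18 the most abundant. The groups did not overlap in this sum or in Krt18, while they overlapped in Krt8, Gata3 and Cdx2. Cdx2 was at 1.79 ± 0.765 FPKM in controls and 1.89 ± 0.938 FPKM after KD (SD, n = 4 each). The 3 markers of the inner cell mass summed to 109, 132, 218 and 131 FPKM in controls and to 135, 150, 274 and 194 FPKM after KD, with Nanog the most abundant. The groups overlapped, and Sox2 was at 1.67 ± 0.276 FPKM in controls and 1.36 ± 0.351 FPKM after KD (SD, n = 4 each). The 5 markers of 2-cell embryos summed to 0.596, 0.851, 0.291 and 0.668 FPKM in controls and to 2.39, 6.16, 2.46 and 6.68 FPKM after KD, without overlap, with Zfp352 the most abundant. Their part in the members' values was not tested. Of 7 markers of cumulus and granulosa cells, Ptx3 was at 0 in all libraries, and the most abundant, Amhr2, was at 5.16 ± 1.12 FPKM in control and 4.68 ± 1.13 FPKM in KD blastocysts (SD, n = 4 each).

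Other genes of ribosomal RNA were read beside the members. The list was drawn from genes annotated as ribosomal RNA, mitochondrial ones included, and from added symbols, among them the protein-coding gene Lars2. Of 359 genes of that list in the table, 231 were at 0 in all libraries. In KD morulae 8 were tested and 1 was a higher DEG, CT010467.1, a call lost in 5 of 12 alternatives, beside 0.992% of all genes higher and 2.53% lower. The median log2 fold change of the 8 was 0.37, against 0.02 over all genes. The mitochondrial mt-Rnr2 stood at 9046 ± 1739 FPKM (SD, n = 4) in control and 10593 ± 1715 FPKM (SD, n = 3) in KD morulae (limma, adjusted p = 0.135). mt-Rnr1 had a log2 fold change of 0.66 there (limma, adjusted p = 0.0796). In 2-cell embryos 0 of 8 tested genes of the list were DEGs, with a median of -0.02.

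Among 16 genes of RNA polymerase I transcription, 0 were DEGs in 2-cell embryos or morulae, with medians of -0.07 and 0.01, while their sum in morulae was 782 ± 34.5 FPKM (SD, n = 4) in controls and 753 ± 28.1 FPKM (SD, n = 3) after KD. Polr1d, a subunit shared by RNA polymerases I and III, was at 129.6 ± 12.2 FPKM (SD, n = 4) in control and 135 ± 26.4 FPKM (SD, n = 3) in KD 2-cell embryos. It was at 188 ± 14.2 FPKM (SD, n = 4) in control and 208 ± 18.1 FPKM (SD, n = 3) in KD morulae, and at 202 ± 22.8 FPKM in control and 176 ± 17.8 FPKM in KD blastocysts (SD, n = 4 each). Among 32 genes of ribosomal RNA processing, 0 were DEGs at either stage, with medians of -0.13 and 0.14. Npm1, which encodes the nucleolar protein nucleophosmin, was at 426 ± 118 FPKM (SD, n = 4) in control and 297 ± 38.6 FPKM (SD, n = 3) in KD 2-cell embryos. It was at 2300.3 ± 51.4 FPKM (SD, n = 4) in control and 2404 ± 32.6 FPKM (SD, n = 3) in KD morulae, and at 1295 ± 195 FPKM in control and 1726 ± 115 FPKM in KD blastocysts (SD, n = 4 each).

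Histone genes taken by symbol, short structured RNAs, long nuclear noncoding RNAs and mitochondrial messenger RNAs were read in the same way. The background was the same, 0% of genes in 2-cell embryos and, in morulae, 0.992% higher and 2.53% lower. Replication-dependent histones had 0 DEGs of 16 tested in 2-cell embryos and 0 of 20 in morulae, with medians of 0.19 and 0.14. Short structured RNAs had 0 of 4 and 0 of 5, with medians of 0.05 and 0.17. Their summed FPKM, led by Rpph1, went the other way in morulae, at 58.9 ± 25.1 (SD, n = 4) in controls and 41.7 ± 8.83 (SD, n = 3) after KD, and the groups overlapped. Long nuclear noncoding RNAs had 0 of 6 and 0 of 6, with medians of 0.15 and 0.17, while their sum in morulae, led by Malat1, was 531 ± 97.5 FPKM (SD, n = 4) in controls and 501 ± 53.3 FPKM (SD, n = 3) after KD. The 13 mitochondrial messenger RNAs had 0 DEGs at either stage, with medians of 0.18 and 0.49, and all 13 had a fold change above 0 in KD 2-cell embryos (12 of 13 with FPKM as deposited) and in KD morulae (13 of 13 with FPKM as deposited). Their summed FPKM in morulae gave p = 0.0286 in an exact two-sided permutation test, the smallest p this design allows, and 0.286 after adjustment over 20 tests. The sum of the ribosomal RNA processing genes, at 1.06 times that of controls in KD morulae, gave the same p in that exact test, before and after adjustment.

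The lists were also described in KD blastocysts, within the contrast that chose the members and beside its background of 6.06% of genes higher and 7.69% lower. Over all genes the median log2 fold change was 0.00. Of the ribosomal RNA processing genes 29 of 32 were higher, 6 were higher DEGs and 0 lower, with a median of 0.53. Of the RNA polymerase I genes 12 of 16 were higher, with a median of 0.48, and 1 was a higher DEG, Taf1c, a subunit of the selectivity factor of RNA polymerase I. Of the ribosomal RNA list, drawn up with Lars2 among its symbols, 8 of 8 tested genes were higher, with a median of 0.63. These 8 include CT010467.1, which shares bases with AY036118, so no call is given for it here. Short structured RNAs were higher in 6 of 6, with a median of 0.77, and Rnu12 and Rny1 were higher DEGs. Of the 13 mitochondrial messenger RNAs 9 were lower, with a median of -0.23, mt-Co1, mt-Co2 and mt-Co3 were lower DEGs and mt-Nd2 was a higher DEG. Of 51 replication-dependent histones 30 were lower, with a median of -0.09, and 1 was a higher DEG, Hist2h3c2. Long nuclear noncoding RNAs had 0 DEGs of 7 in limma, with a median of -0.06. These DEGs were named after their values were seen, and nothing is read from these counts for the members.

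The likeness of the members to other genes was measured as Pearson's r of log2(FPKM + 1) over 22 libraries, among 15697 genes. Genes read in the same library share its group and its depth. The 22 libraries include the blastocysts by which the members were chosen. Genes that differ between KD and control blastocysts in the same direction are therefore favoured. Closest to AY036118 were Dyrk3 (r = 0.831), Hgs (0.826), Gtse1 (0.812), Exosc6 (0.801) and CT010467.1 (0.799). Closest to Gm42418 were Tpt1-ps5 (r = 0.710), Ube2nl (0.699), Tpt1-ps6 (0.694), Ywhag (0.676) and Setd5 (0.668). Closest to Gm26917 were Gm11800 (r = 0.961), Sh3d21 (0.960), Olfr1459 (0.959), Anapc5 (0.958) and Rarb (0.957). With the 6 group means taken away, r between AY036118 and Gm26917, which share no bases, was 0.679. Between AY036118 and the genes that hold all its bases, r was 0.616 for CT010467.1 and 0.02 for Gm42418. On these deviations AY036118 was closest to Mta2 (r = 0.845), Glg1 (0.844), Dolpp1 (0.837), Larp4b (0.836) and Wbp1l (0.823). Gm42418 was closest to Micall1 (r = 0.907), Nfxl1 (0.880), Gtf3c4 (0.878), Bmx (0.859) and Smurf1 (0.854). The r values of Gm42418 on deviations, that with AY036118 included, lean on replicate 4 of each 2-cell group. Gm42418 was at 2.54 FPKM in that control library and 14.9 FPKM in that KD library, far below the rest of each group. Gm26917 was closest to Ei24 (r = 0.862), Smpd4 (0.856), Tspan14 (0.820), Spr (0.819) and A4galt (0.818).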

How the data were processed

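The authors aligned reads to mm10 with STAR, quantified genes with StringTie 2.1.4 and deposited FPKM, which divide by gene length and library total; DESeq2 on counts, the authors' own test, was not used here. Groups and replicate numbers came from the sample titles, with 0 columns unmatched. The members and lists were chosen with earlier results of these data known. FPKM were scaled within each comparison by the median ratio to the geometric mean, and log2(FPKM + 1), a pseudocount of 1, was compared with limma 3.58.1 in R 4.3.3 (lmFit, eBayes with a trend, no covariate, Benjamini-Hochberg over all genes tested), which was tested on simulated data. A log2 fold change on this scale understates the change of low genes. Named genes were the members, H2afz, H2afv, genes sharing 31 bases with a member, and the genes most like each member. Markers of cell types, mt-Rnr1, Lars2, the most abundant genes of the lists and some of their DEGs were named too. Of the 55335 identifiers, 54587 matched the GENCODE annotation of GRCm38, the source of positions and sequences. Python 3.11.15, pandas 2.3.3, numpy 2.4.6 and matplotlib 3.10.9 were used. Low values of 11638 single-exon genes were searched for steps of 1 read, but at most 28.2% of low values in a library sat at the commonest step, so whole reads were not recovered and no counting interval is given. Alternatives were a pseudocount of 0.1, no filter, no scaling, replicate numbers as a block or batch term, and each library left out.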

Additional observations from a re-analysis of the deposited data

How the results depend on the processing

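Under the alternatives chosen with the design, the rise of Gm26917 from control 2-cell embryos to control morulae kept its direction and its call in 12 of 12. That call stood beside 32.1% of 13655 genes higher, and Gm26917 passed the filter on low FPKM through the morulae. The difference of AY036118 between KD and control kept its direction in 12 of 12 at the 2-cell stage and 12 of 12 in morulae. It never passed the threshold, and its size varied. Leaving out 1 library, it ran from -0.90 to -0.43 in 2-cell embryos and from 0.34 to 1.23 in morulae. Without scaling, Gm26917 in KD 2-cell embryos turned to -0.037. With no fold threshold the DEGs were 1458 in morulae and 4321 in blastocysts, where the counts had been 387 and 1626; with a pseudocount of 0.1 they were 789 and 2477; with no filter they were 169 in morulae, among 32900 genes tested. With low against high replicate numbers as a batch term, Gm42418 in KD morulae was 1.12 and passed the threshold, and in KD 2-cell embryos it was 0.0057. Leaving out 1 library, the log2 fold change in KD 2-cell embryos ran from -0.81 to 1.68 for Gm42418 and from -0.21 to 0.23 for Gm26917, and the DEGs there from 0 to 3. It ran from 0.90 to 1.60 for Gm42418 in KD morulae. From control 2-cell embryos to control morulae it ran from -1.06 to -0.16 for AY036118 and from -1.22 to 0.82 for Gm42418. The difference of the KD effect for Gm42418 ran from -0.41 to 2.09, and the DEGs of that test from 84 to 279. The cause of these changes was not tested. Same-numbered libraries were not treated as pairs, since their correlations in 2-cell embryos, 0.209, 0.0146 and 0.214, were not all above 0.1, and not every library correlated best with its own number. In morulae the numbers split by range: control and KD libraries numbered 1 or 2 correlated at 0.094 to 0.181, those with higher numbers at 0.185 and 0.347, and pairs across the ranges at -0.278 to -0.095. What the ranges stand for is not given in the sources used here. With the replicate block, DEGs were 0 in 2-cell embryos, 514 in morulae, 1632 in blastocysts and 8544 between the control stages, where AY036118 was 0.25, Gm42418 -0.79 and CT010467.1 -0.35 (limma, adjusted p = 0.339, with -1.16 and 0.00344 without the block). In KD morulae with the block, AY036118 was 0.096 and Gm42418 0.79 (limma, adjusted p = 0.817 and 0.00516). Only numbers 1 and 2 occur in both groups, in morulae and between the control stages. These block fits therefore rest on few libraries, and their p-values are not to be relied on. Depth in reads is unknown, so low values such as Gm26917 in 2-cell embryos have no counting error that can be given.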
